A study of Drosophila melanogaster with 23 samples.

Results

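The pair-rule genes paired (prd, Dmel_CG6716) and odd paired (opa, Dmel_CG1133) were described through the open chromatin around them in 7 positions along the antero-posterior axis of the Drosophila melanogaster blastoderm. The peaks of 22 ATAC-seq peak lists on genome build dm3 were merged into 25311 regions wherever they overlapped by at least 1 bp. A region belonged to prd when its centre lay in 2L:12065000-12100000 and to opa when its centre lay in 3R:655000-700000. This gave 33 regions, 17 at prd and 16 at opa, numbered along the chromosome arm as prd-1 to prd-17 and opa-1 to opa-16.

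Pair-rule genes divide the blastoderm into repeated units and act between the gap genes and the segment polarity genes such as engrailed and wingless. Prd is a transcription factor with a paired domain and a homeodomain, and it is transcribed in stripes. Opa is a zinc finger transcription factor of the Zic family, and it is transcribed across the trunk as a broad band and not in stripes at this age. In the gene order of NCBI RefSeq, which uses another genome build (Release 6), prd lies between the protein-coding genes CG14947 and Pex19, and opa lies between CG14659 and laf. Which of the regions lie inside a gene, at a promoter or in a known enhancer was not analysed here, because no gene annotation or sequence of build dm3 was used.

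ATAC-seq uses the transposase Tn5 to cut DNA where it is open. All embryos were stage 5, wild-type apart from a transgene, collected for 20 min, aged for 150 min and frozen 190 min after collection began. The transgene made a nuclear tag (UNC84-3xFLAG) under the enhancer of an early gene, and nuclei were pulled down with an antibody to FLAG, so a domain is defined by where its enhancer was active. From anterior to posterior, by the known positions of these enhancers, the domains were D1 (hunchback anterior), D3 (even-skipped stripe 1), D2 (even-skipped stripe 2), D4 (Dichaete central), D5 (Kruppel central), D6 (even-skipped stripe 5) and D7 (giant posterior). The core promoter was Hs34 in D1, DSCP in D2, D3 and D6, and Hs43 in D4, D5 and D7. Each domain had 2 libraries from separate transgenic lines, except that both D3 libraries carried the label of line A. Whole-embryo libraries, made without the pull-down, came from the D1, D4, D5 and D7 strains, 2 of each. Domains were grouped as anterior (D1, D2 and D3, 6 libraries), central (D4 and D5, 4 libraries) and posterior (D6 and D7, 4 libraries). A bulk library cannot tell fewer open nuclei from less opening in each nucleus, and whether the driver genes were themselves open in their domains was not analysed here.

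The lists held 16830 to 22169 peaks that covered 10.3 to 14.5 Mb, with 13.04 to 14.49 Mb in the central lists, 10.9 to 14.3 Mb in the anterior lists and 10.3 to 12.6 Mb in the posterior lists. Read depth is unknown. The names inside the lists came in 3 styles, treated as a possible batch, with 4, 7 and 3 of the tagged libraries. The style with 3 held libraries of D2, D3 and D6 only, so no central one. A list's median -log10 q was 39.4 to 55.0 in the tagged lists of the style with 4, and 20.3 to 20.8 in that with 3. The middle value of this median was 42.2 for central, 25.7 for anterior and 23.4 for posterior lists. Its part in the differences was not tested. In 14 lists, those of the styles with 7 and 3 tagged libraries, some peaks carry a letter in their name and seem to be reported at a late one of their several summits, so folds and summits of such peaks do not compare with those of the other 8 lists.

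Most of the regions at both genes were open in every library. A peak was found in all 22 libraries at 20 of the 33 regions, 11 at prd and 9 at opa, against 42.8% of all 25311 regions. Only 3 regions, prd-3, opa-1 and opa-5, were found in a single library, against 10.2% of all regions. Of the 32 regions seen in any tagged library, 5 were absent from both libraries of some domain while both libraries of another domain had them (prd-1, prd-11, prd-17, opa-2 and opa-10), against 22.1% of all regions. These shares describe the calls and were not tested. The peaks of a library covered 12422 to 14987 bp in the prd window and 26693 to 31307 bp in the opa window.

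**Figure D1:**
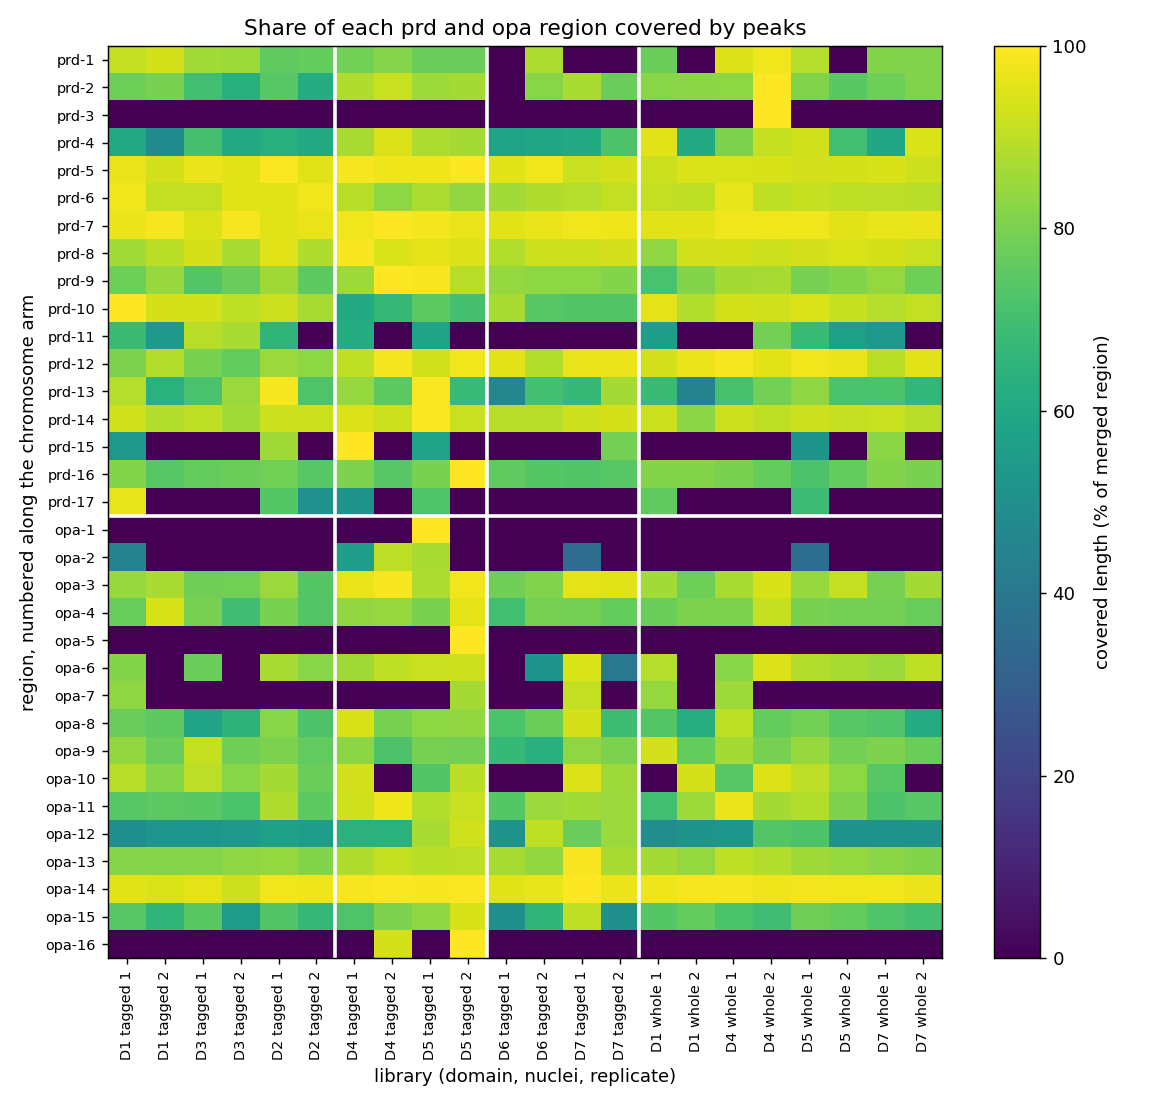
Share of each merged region (rows, in order along the arm) covered by peaks in each of the 22 libraries (columns, from D1 to D7 and then whole embryo). Colour gives the covered length as a percent of the region, the darkest colour is no peak, and the 20 regions found in every library have no such cell.

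The 3 prd regions with the highest folds, prd-6 to prd-8, stood side by side within 2L:12080851-12088001. The authors' fold enrichment at the summit is a value of each peak in its own list, and a region was ranked by the median over libraries of the fold of its strongest peak. This median was 15.1 in prd-7 (lowest 10.7, highest 19.6), 12.2 in prd-6, 11.8 in prd-8, 10.4 in prd-12 and 10.2 in prd-5. The ranks pool both kinds of list, and the peaks at prd-7, prd-8 and prd-12 were lettered in some of them. The longest was prd-7 at 2L:12082257-12086328, a block of 4072 bp that held a single peak in every library. Merged regions of at least 4000 bp made up 1.19% of all regions and 2 of the 33 here, prd-7 and opa-14. In prd-7 the peak covered 3860 to 4023 bp in the anterior libraries, 3942 to 4068 bp in the central, 3886 to 3980 bp in the posterior and 3883 to 3988 bp in whole embryos, so all groups overlapped. Its reported summit lay 3635 to 3650 bp from the start of the region in all 22 libraries, near the end of the block.

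**Figure D2:**
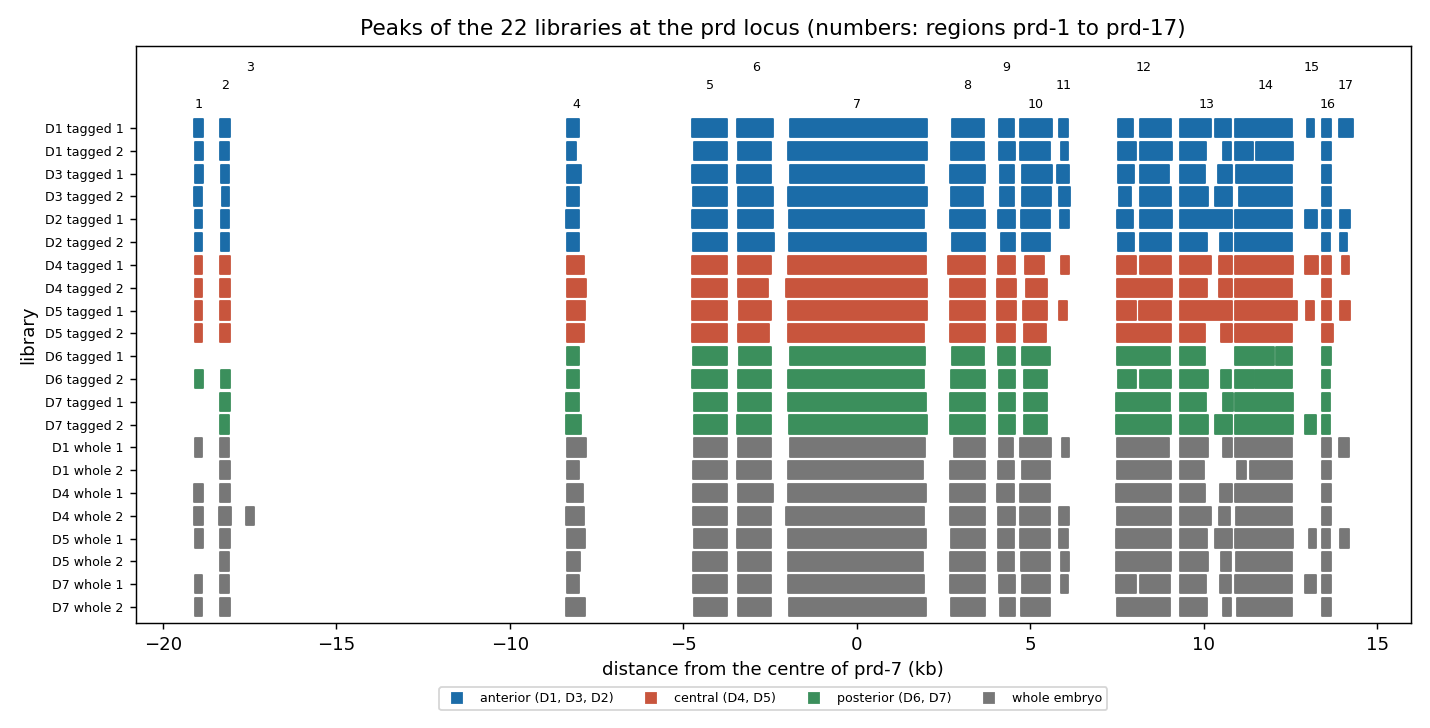
Peaks of the 22 libraries at prd, drawn as bars against the distance in kb from the centre of prd-7, with the numbers of the regions above. The block at 0 is prd-7, present in every library. The bars under number 12 are broken in all 6 anterior libraries, and those under number 11 are missing from all 4 posterior libraries.

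The opa window held the longest block. The region opa-14 at 3R:677503-698092 spanned 20590 bp and was found in every library. Only 3 of the 25311 regions, 0.0119%, were at least 20000 bp long, and opa-14 was one of them. It was chosen for description after its values were seen. The highest median fold at opa was 19.3, in opa-13 (3R:674177-676493), where single libraries ran from 3.63 to 24.4. It was followed by 12.4 in opa-4 (3R:660002-661897) and 12.1 in opa-11 (3R:670405-672589). Lettered peaks entered these values too, and the 3 lowest folds at opa-13 all belonged to lettered peaks. The order depends on the kind of list. At opa-14 the median fold was 6.90, with lettered peaks in 14 libraries. In the other 8 lists the fold at opa-14 ran from 18.3 to 25.2, and at opa-13 from 17.4 to 24.4. In opa-4 the summit lay 1197 to 1212 bp from the start in all 22 libraries. Peaks in opa-4 covered 1316 to 1781 bp in anterior, 1512 to 1816 bp in central and 1324 to 1506 bp in posterior libraries, and 1456 to 1726 bp in whole embryos. The anterior range held the posterior one and overlapped the central one.

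The block at opa-14 was interrupted in every anterior library, and in 2 of 4 central, 3 of 4 posterior and 8 of 8 whole-embryo libraries. Peaks covered 19698 and 19389 bp of it in D1, 19732 and 19037 bp in D3, and 20136 and 20061 bp in D2. They covered 20287 and 20446 bp in D4, 20378 and 20490 bp in D5, 19601 and 19857 bp in D6, and 20585 and 19971 bp in D7. Whole embryos lay between 19998 and 20347 bp. All 4 central values were above all 6 anterior ones, while the posterior values ran across both. The share of all regions where central and anterior libraries separate was not counted. The uncovered stretches between peaks added up to 198 to 1045 bp in the 6 anterior libraries and to at most 133 bp in the central ones, 2 of which were covered without a break. They reached 728 bp in the posterior libraries and ran from 69 to 344 bp in whole embryos. Anterior libraries split the block into 3 or 4 peaks and central libraries into 1 or 2. The mean covered length was 526 bp lower in anterior libraries than in the rest (exact permutation test over 3003 divisions of 14 libraries, two-sided, p = 0.0246, adjusted p = 0.270), and 594 bp higher in central libraries than in the rest (exact permutation test, p = 0.0200, adjusted p = 0.208). Neither passed the threshold of 0.05 on the adjusted p. Both differences changed sign when covered length was scaled to the library's total covered length, to +204 bp and -2289 bp.

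**Figure D3:**
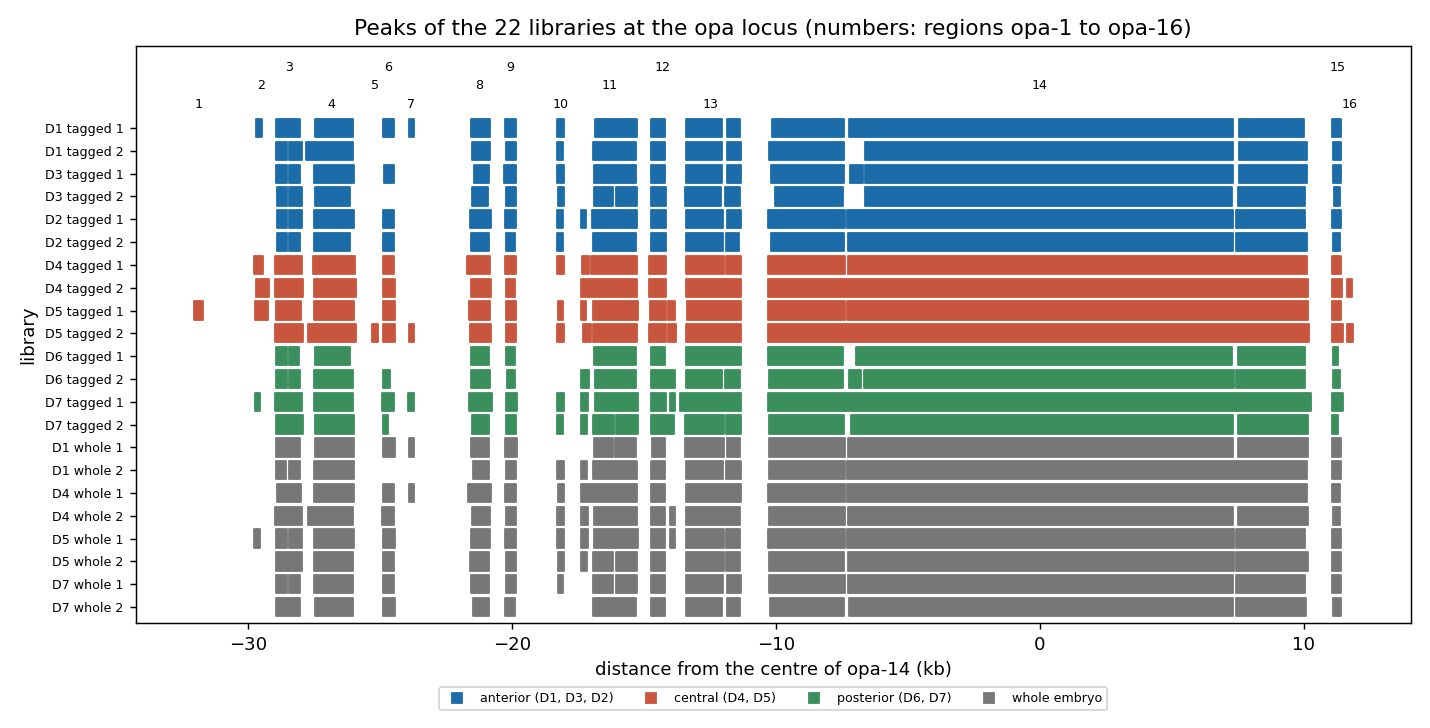
Peaks of the 22 libraries at opa, drawn as bars against the distance in kb from the centre of opa-14, with the numbers of the regions above. The long bar in the middle is opa-14, broken into 3 or 4 peaks in each of the 6 anterior libraries and into 1 or 2 in the central ones.

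For the comparisons, the length covered by peaks was tested at every region of the genome found in at least 2 of the libraries compared, with an exact permutation test over all divisions of the libraries, two-sided and adjusted by Benjamini-Hochberg. Presence of a peak was tested by Fisher's exact test, two-sided, over regions with at least 2 libraries on either side, with and without a peak. A difference was called at an adjusted p under 0.05. Of the 33 regions, 30 entered the length test and 9 the presence test. The other 3 were the regions found in 1 library.

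The first question was whether anterior nuclei differ from the rest of the axis. Peaks covered more of prd-10 and less of prd-12 in anterior libraries, and these were the 2 of 30 regions called, against 1.61% of the 21358 regions tested. At an unadjusted p under 0.05, 11 of 30 regions were past the threshold against 13.4% of all, 3 longer in anterior libraries (5% of all) and 8 shorter (8.42% of all). The median difference was -9.29 bp over 16 prd regions and -80.5 bp over 14 opa regions, against -16.9 bp over all regions tested. Differences in bp can be larger at longer regions, and these medians were not scaled to region length.

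At prd-10 (2L:12088991-12089912, 922 bp) the peak covered 919 and 864 bp in D1, 863 and 833 bp in D3, and 850 and 800 bp in D2. It covered 563 and 613 bp in D4, 691 and 649 bp in D5, 801 and 681 bp in D6, and 672 and 673 bp in D7. The anterior libraries were the longest, apart from 1 library of D6 that passed the shortest of D2 by a single bp. The mean was 855 ± 39.4 bp (SD, n = 6) in anterior libraries and 668 ± 68.5 bp (SD, n = 8) in the rest, a difference of 187 bp (exact permutation test, p = 0.000666, adjusted p = 0.0414). Whole embryos covered 816 to 884 bp, within the anterior range. The authors' fold was higher in every anterior library than in any other tagged library. Fold and length come from the same peaks, and the share of all regions whose folds separate in this way was not counted. It was 7.81 and 5.86 in D1, 6.24 and 7.44 in D3, and 5.94 and 7.10 in D2. It was 2.17 and 2.13 in D4, 3.06 and 2.58 in D5, 3.61 and 2.22 in D6, and 2.44 and 3.06 in D7, and between 4.58 and 6.07 in whole embryos. The peak was lettered in 3 anterior and 4 other tagged libraries. Among those the folds were 5.86 to 6.24 in anterior and 2.13 to 3.61 in other libraries, and among the remaining tagged libraries 7.10 to 7.81 and 2.17 to 3.06. Folds belong to peaks of separate lists and were not tested.

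At prd-12 (2L:12091754-12093368, 1615 bp) the order was the opposite. Peaks covered 1299 and 1429 bp in D1, 1290 and 1231 bp in D3, and 1372 and 1338 bp in D2. They covered 1458 and 1585 bp in D4, 1499 and 1580 bp in D5, 1544 and 1432 bp in D6, and 1561 and 1570 bp in D7. Every anterior library lay below every other tagged library, and such a separation was seen at 1 of the 30 regions and at 1.71% of all regions tested. The anterior mean was 202 bp lower (exact permutation test, p = 0.000333, the smallest that 3003 divisions can give, adjusted p = 0.0284). The difference came with a break inside the region. All 6 anterior libraries had 2 peaks there, with 110 to 253 bp uncovered between 2L:12092213 and 2L:12092471. Of the other 8 tagged libraries, 3 had a break, of 83 to 115 bp, and of the 8 whole-embryo libraries 1 had a break, of 109 bp. The uncovered stretch is part of the shorter covered length, so the break is not a separate result. How many regions of the genome are broken in every anterior library was not counted, here or for opa-13 and opa-14. The summit of the strongest peak lay 1159 to 1190 bp from the start of the region in all 22 libraries, to the right of the break. Whole embryos covered 1448 to 1593 bp, above the anterior range.

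Both calls were lost when the name style was held fixed (exact permutation test within styles, adjusted p = 0.102 for each) and when covered length was scaled to the library's total (adjusted p = 0.198 for prd-10 and 0.583 for prd-12). They were also lost on leaving out any 1 library other than replicate 2 of D2 or replicate 1 of D6, with adjusted p-values of 0.0340 to 0.0861 for prd-10 and 0.0448 to 0.0677 for prd-12 over the 14 fits. The 3003 divisions treat the 2 libraries of a domain as separate units. With domain means as the units both calls were lost too (exact permutation test, adjusted p = 0.549 for each). Within styles, with domain means or with 1 library left out, there are fewer divisions, so the smallest possible p is higher. Both directions stayed in every alternative. Within the style with 7 tagged libraries, 1 of each domain, the difference was +175 bp at prd-10 and -206 bp at prd-12. In each of the other styles 1 side of the comparison held a single library, and no within-style difference was computed there.

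**Figure D4:**
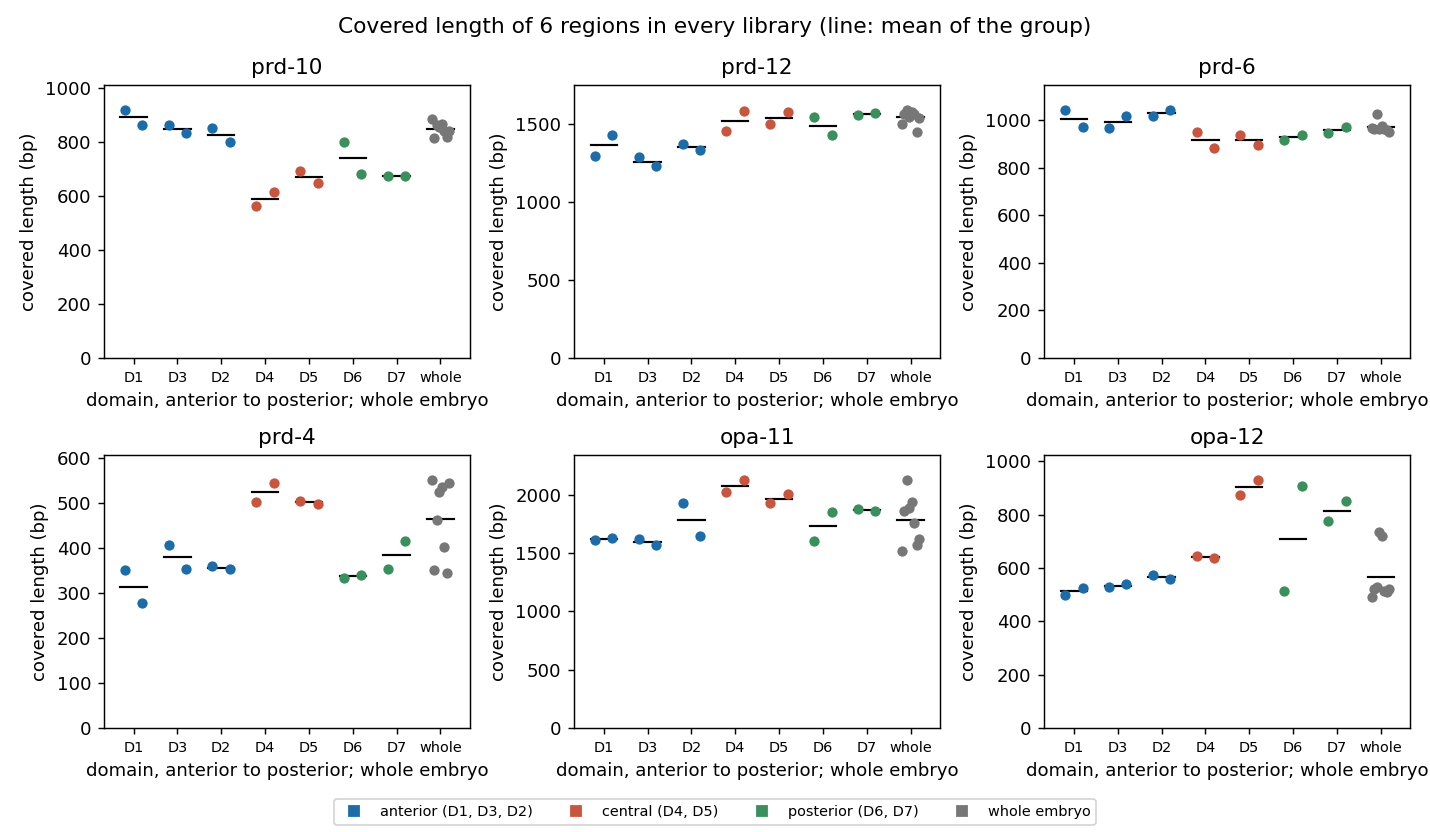
Covered length in bp at 6 regions in every library, by domain from anterior to posterior, with whole embryos at the right. Points are libraries, and lines are means of a domain (2 libraries) or of whole embryos (8 libraries). Anterior points sit at 800 to 919 bp in prd-10, and below all other tagged libraries in prd-12.

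Just short of the threshold, prd-6 (2L:12080851-12081915) and opa-13 followed the same directions. In prd-6 the peak covered 968 to 1043 bp in the 6 anterior libraries, 884 to 951 bp in the central and 917 to 969 bp in the posterior ones, and 950 to 1025 bp in whole embryos. The anterior mean was 79.7 bp higher than that of the rest (exact permutation test, adjusted p = 0.0501). In prd-6 the lowest folds were those of the 4 central libraries, 7.02 to 9.41, while the other tagged libraries had 11.3 to 16.7. How many regions of the genome separate by fold like this was not counted. In opa-13 peaks covered 1891 to 1952 bp in the anterior, 2039 to 2111 bp in the central and 1938 to 2292 bp in the posterior libraries. The anterior mean was 161 bp lower (exact permutation test, adjusted p = 0.0675). All 6 anterior libraries had 120 to 194 bp uncovered inside opa-13, and 4 of the 8 other tagged libraries had a break, of 61 to 111 bp. A break also stood in 6 of 8 whole-embryo libraries.

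At opa-12 (3R:672992-673994) the anterior libraries were the most alike. Peaks covered 501 and 526 bp in D1, 528 and 540 bp in D3, and 573 and 558 bp in D2. They covered 644 and 639 bp in D4, 876 and 931 bp in D5, 514 and 908 bp in D6, and 775 and 851 bp in D7. Only replicate 1 of D6 fell inside the anterior range. In all 6 anterior libraries the last 364 to 413 bp of the region were uncovered. This uncovered end also reached 364 bp in central, 401 bp in posterior and 413 bp in whole-embryo libraries. The anterior mean was 230 bp lower (exact permutation test, p = 0.00533, adjusted p = 0.128), which is not a call. Of the whole-embryo libraries, 6 of 8 covered 492 to 528 bp and the other two 721 and 734 bp.

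The second comparison set central nuclei against all others. No region of the genome was called (0 of 21358), and 1001 divisions allow no p below 0.000999, which gave an adjusted p of 0.0940 at best. At an unadjusted p under 0.05, 13 of 30 regions were past the threshold against 18% of all. Of these, 11 were longer in central libraries (17.1% of all) and 2 shorter (0.824% of all). Over all regions tested the central libraries were longer by a median of 60.5 bp, and the medians were 56.5 bp at prd and 114 bp at opa. Region length was not taken into account here either. The central lists also covered more of the genome. What part this had in the differences below was not tested. Scaling covered length to the library's total reversed those at prd-8 and opa-3. An added scaling, to the regions found in every library, reversed that at prd-8 too.

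Groups did not overlap at prd-4 and opa-11, 2 of 30 regions against 2.16% of all tested. In prd-4 (2L:12075921-12076496), a weaker region with a median fold of 3.86, the peak covered 501 and 545 bp in D4 and 505 and 498 bp in D5. It covered 350 and 277 bp in D1, 407 and 353 bp in D3, 360 and 353 bp in D2, 334 and 341 bp in D6, and 353 and 416 bp in D7. The start of the peak lay within 31 bp of the start of the region in all 14 tagged libraries, and the end differed, 14 to 54 bp before the end of the region in central libraries and 153 to 283 bp before it in the others. The difference was 158 bp (exact permutation test, p = 0.000999, adjusted p = 0.0940). In whole embryos the peak covered 344 to 551 bp, overlapping both groups.

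In opa-11 peaks covered 2027 and 2128 bp in D4 and 1929 and 2005 bp in D5. They covered 1616 and 1632 bp in D1, 1623 and 1566 bp in D3, 1927 and 1644 bp in D2, 1608 and 1854 bp in D6, and 1882 and 1860 bp in D7. The lowest central library passed the highest other one, replicate 1 of D2, by a few bp. The central mean was 301 bp higher (exact permutation test, p = 0.000999, adjusted p = 0.0940). The first peak began 0 to 70 bp from the start of the region in all central libraries, in 1 of D2, 1 of D6 and both of D7, and 460 to 521 bp from it in the other 6. Within the style with 7 tagged libraries the central difference was +163 bp at prd-4 and +337 bp at opa-11. Over 23 alternatives both differences kept their direction. Their adjusted p-values ran from 0.0834 to 0.390 at prd-4 and from 0.0878 to 0.925 at opa-11 (exact permutation tests).

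The 2 regions past the unadjusted threshold that were shorter in central libraries were prd-10, by 167 bp (exact permutation test, p = 0.00599, adjusted p = 0.157), and prd-6, by 66.7 bp (exact permutation test, p = 0.0220, adjusted p = 0.214). Of the other named regions, prd-9 (2L:12088341-12088893) covered 472 to 553 bp in central and 405 to 474 bp in the other tagged libraries (exact permutation test, adjusted p = 0.112). Peaks in prd-8 (2L:12086938-12088001) covered 1005 to 1055 bp in central and 917 to 1014 bp in other tagged libraries (exact permutation test, adjusted p = 0.167). Those in opa-3 (3R:658810-659881) covered 938 to 1062 bp in central and 790 to 1027 bp in other tagged libraries (exact permutation test, adjusted p = 0.182). All 3 pairs of ranges overlapped. Scaled to total covered length, the central difference became -85.8 bp at prd-8 and -9.51 bp at opa-3.

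**Figure D5:**
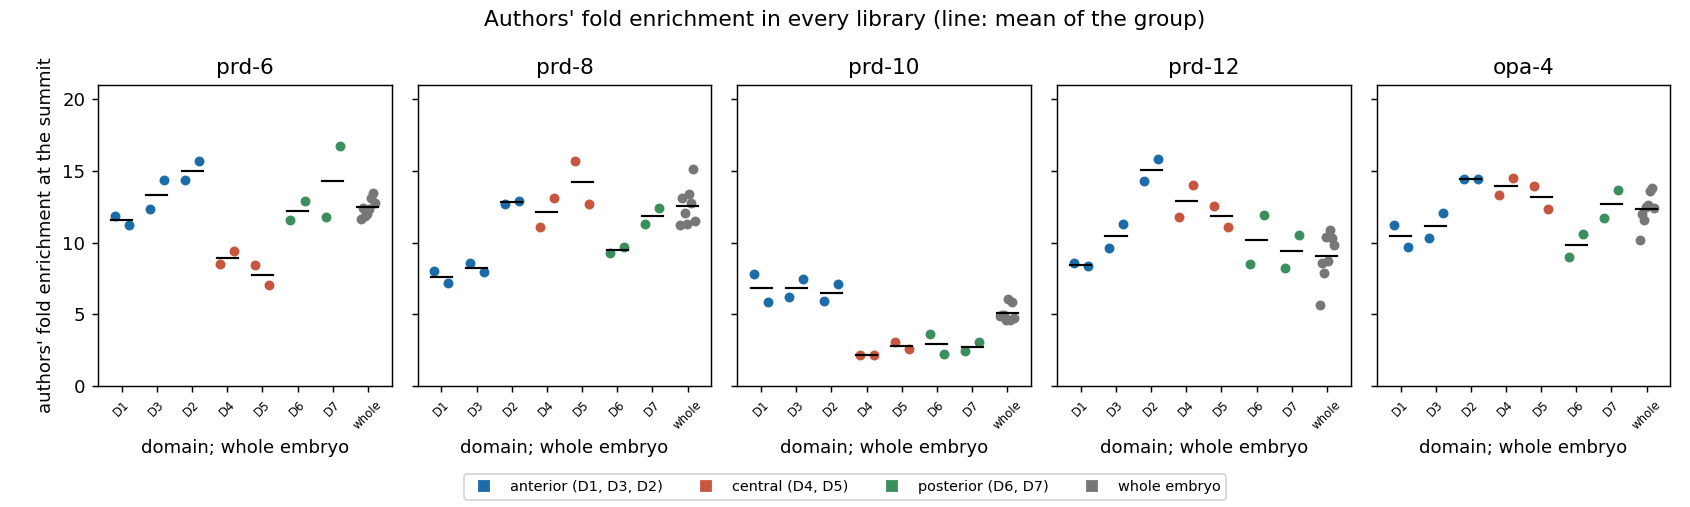
The authors' fold enrichment at the summit of the strongest peak in 5 regions, by domain and in whole embryos. Points are libraries, and lines are means of a domain (2 libraries) or of whole embryos (8 libraries). Anterior points in prd-10 lie at 5.86 to 7.81 and all other tagged points at 2.13 to 3.61, while the 4 central points are the lowest in prd-6.

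Posterior nuclei were compared with all others in the same way. No region was called by length (0 of 21358) or by presence (0 of 9284). At an unadjusted p under 0.05, 1 of 30 regions was past the threshold by length against 9.32% of all, and 1 of 9 by presence against 3.76%, and both were prd-1 (2L:12065195-12065458). A peak stood there in all 10 anterior and central libraries, covering 200 to 247 bp, and in 1 of the 4 posterior libraries, replicate 2 of D6, covering 232 bp. It was found in 6 of 8 whole-embryo libraries. The test gave p = 0.0110 for presence (Fisher's exact test, two-sided, adjusted p = 0.641) and p = 0.00899 for length (exact permutation test, adjusted p = 0.288). The peak was weak, with a fold of 1.68 to 2.29 where found. Read depth is unknown, and its part in the missing peaks was not tested.

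The other regions that varied between domains were weak too. At prd-11 (2L:12090077-12090451) a peak was found in 5 of 6 anterior, 2 of 4 central and none of 4 posterior libraries, with folds of 1.61 to 2.18, and in 5 of 8 whole-embryo libraries. Its length difference between anterior libraries and the rest was 171 bp (exact permutation test, p = 0.0140, adjusted p = 0.209). At prd-17 (2L:12098188-12098583) peaks were found in both libraries of D2, in replicate 1 of D1, D4 and D5, and in no posterior library. At opa-2 (3R:658032-658590) both D4 libraries and replicate 1 of D1, D5 and D7 had a peak. Replicate 1 of D1, D4, D5 and D7 make up the name style with 4 tagged libraries, so all of that style had a peak at opa-2. The 1 whole-embryo peak at opa-2, in replicate 1 of the D5 strain, was of that style too. The central peaks at prd-11 and prd-17 came from that style alone, so domain and name style are mixed at these regions. At opa-10 (3R:669494-669769) a peak was missing from both D6 libraries and from replicate 2 of D4 among the 14 tagged libraries. No presence test was called at any of them in any comparison, where 9 of the 33 regions could be tested, and none of these 4 had an unadjusted p under 0.05 for presence. Over the genome, presence tests called 0 of 9284 regions in the anterior and central comparisons, with 5.78% and 5.47% at an unadjusted p under 0.05.

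The last comparison set nuclei pulled down from the D1, D4, D5 and D7 lines against whole embryos of those lines, with 8 libraries on each side. No region was called by length (0 of 22373, 9.33% at an unadjusted p under 0.05) or by presence (0 of 9055, 3.01% at an unadjusted p under 0.05). By length, 6 of 30 regions were past the unadjusted threshold. Among them prd-10 was shorter in tagged nuclei by 143 bp (exact permutation test over 12870 divisions, p = 0.00684, adjusted p = 0.332). Shorter in tagged nuclei were 1 of 30 regions (4.04% of all) and longer were 5 (5.3% of all), namely prd-5, prd-7, opa-2, opa-3 and opa-12, with opa-12 by 150 bp (exact permutation test, p = 0.0427, adjusted p = 0.516). Among the 8 tagged libraries compared here, only the D1 pair reached or passed the whole-embryo range of 816 to 884 bp in prd-10, with 919 and 864 bp.

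No call was made at the remaining regions. Found in all 22 libraries were prd-13, prd-14 and prd-16, with median folds of 6.13, 3.69 and 3.602, and opa-8, opa-9 and opa-15, with 7.39, 4.84 and 2.48. At prd-13, which spans 2L:12093608-12095123, peaks left 116 to 482 bp uncovered in 5 of 6 anterior libraries and 188 to 487 bp in 6 of the 8 other tagged libraries, so its break was common to all groups. Found in some libraries were prd-2 in 21, opa-6 in 18, prd-15 in 7, opa-7 in 5 and opa-16 in 2, the last in central libraries alone. The median folds of these 5 ran from 1.503 at prd-15 to 3.53 at prd-2.

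By the correlation of covered length over the 14 tagged libraries, the region outside both windows most like prd-12 was 3L:10667940-10670280 (Pearson r = 0.925). It was followed by 3R:9889872-9890599 (r = 0.916) and 3R:9614092-9614958 (r = 0.909). Most like opa-11 were 3R:2696054-2696401 (r = 0.942), 2L:21836833-21837519 (r = 0.934) and 2L:21839141-21839734 (r = 0.928). The latter 3 were found in 8, 8 and 7 of the 14 libraries, so their correlation rests in part on absent peaks. The values share libraries and list lengths and are a description.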

How the data were processed

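Chromatin accessibility was measured by ATAC-seq in 22 libraries, with the deposited peak list of each. Per the submitters' processing notes the tools were Bowtie2 2.2.9, SAMtools 1.3.1 and MACS2 2.1.1.2 with build dm3, and per the labels genomic DNA was the reference for peak calling. That sample was not analysed here. Each list was called on its own library. The deposited score is 10 times the -log10 q, which is at least 2 in all lists. The authors' fold and summit come from the attribute column. Whether reads were shifted for the transposase is not given in the sources used here.

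Merging, tests and plots used Python 3.11.15, numpy 2.4.6, pandas 2.3.3, scipy 1.17.1 and matplotlib 3.10.9, and the tests were tested on simulated data. Named with values were, per gene, the 5 regions with the smallest length p in a tagged comparison, the 3 with the highest median fold and those that varied between domains. Regions and rules were chosen with earlier results of these data known. Alternatives were other overlaps, thresholds, list lengths, filters, scalings, name styles, blocks, domain means and left-out libraries. Tagged and whole-embryo libraries of a strain pair by the labels (mean correlation of deviations 0.315, other pairs -0.0441).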

Additional observations from a re-analysis of the deposited data

Results flagged for a closer look

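Of 70 groups of 4 to 8 libraries tested for a library that stands apart in covered length, 12 were marked. The nominal rate of about 1 in 20 does not hold where peaks are absent, since a lone peak among zeros is always marked. Among posterior libraries, replicate 2 of D6 had the lone peak at prd-1 (232 bp, the rest 0), while replicate 1 of D6 stood high at prd-10 (801 bp, the rest 672 to 681), low at prd-8 (941 bp, the rest 983 to 991) and low at opa-11 (1608 bp, the rest 1854 to 1882). Replicate 2 of D4 was the longest central library at prd-4 (545 bp, the rest 498 to 505). Replicate 1 of D2 was the longest anterior library at opa-11 (1927 bp, the rest 1566 to 1644). At opa-2 a lone peak stood in replicate 1 of D1 among anterior libraries (250 bp), in replicate 1 of D7 among posterior libraries (200 bp) and in replicate 1 of the D5 strain among whole embryos (205 bp), with the rest at 0. Whole-embryo libraries also stood apart at prd-6 (D4 strain, replicate 1, 1025 bp, the rest 950 to 973), at prd-8 (D1 strain, replicate 1, 889 bp, the rest 976 to 1003) and at opa-4 (D4 strain, replicate 2, 1726 bp, the rest 1456 to 1529).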

How the results depend on the processing

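The count of regions called by length in the anterior comparison, 344, fell to 0 with the replicate number as a block, to 0 with name style held fixed and to 0 with domain means as units. Leaving out 1 library gave 0 to 546, with 0 in 11 of 14 fits. The highest count, 546, came without replicate 1 of D6. Each of these designs allows fewer divisions of the libraries than the main test, so its smallest possible p is higher. A loss of calls there cannot tell a smaller difference from a coarser test. Presence calls in that comparison went from 0 to 45 with the strongest 50% of each list, none of them at prd or opa. Under the replicate block the adjusted p was 0.0533 at prd-10 and at prd-12. Replicate numbers do not pair domains (mean correlation of deviations 0.0882, from -0.172 to 0.611). Pairing by strain changed no call between tagged nuclei and whole embryos. With domain means the adjusted p was 0.549 for both regions. An added scaling, to the regions found in every library and chosen after seeing the data, gave 0.0838 and 0.0925. With the strongest 50%, prd-10 had 0.198, and prd-6 passed the threshold there (0.0491) and with lists of equal length (0.0457). Differences that reversed were prd-9 anterior (7.29 bp, strongest 50%), opa-14 anterior (204 bp), prd-8 central (-85.8 bp), opa-3 central (-9.51 bp) and opa-14 central (-2289 bp) when scaled to covered length, and prd-8 central (-6.35 bp) and opa-14 central (-694 bp) under the added scaling. The cause was not tested. Unknown read depth limits every absent peak.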
